A study of Mus musculus with 22 samples.

Results

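mmu-miR-192-5p, mmu-miR-194-5p and mmu-miR-215-5p (called miR-192-5p, miR-194-5p and miR-215-5p below) are the main mature products of a pair of small microRNA (miRNA) clusters, and their levels were followed in mouse round spermatids (RS). The members are the 3 names of the deposited count table that match this list, of 1966 mature miRNA names in all. Small RNA was sequenced from RS isolated from the testes of 75 to 85 day old mice, in 22 libraries that the labels place in 4 groups and 2 experimental batches. Batch a held 5 libraries of WT mice and 5 of KO mice, which lack GRTH (DDX25), a testis-specific RNA helicase needed for spermatids to elongate. Batch b held 6 libraries of WT mice and 6 of KI mice, which carry a mutated human GRTH gene and lack the phosphorylated form of the protein. RS were purified by sedimentation, and the labels do not say whether each library came from 1 animal, so p-values measure only the spread between libraries. The table holds miRNAs only, and the GRTH transcript was not analysed here.

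A miRNA recognises its target mRNAs mainly through its seed, bases 2 to 8 from the 5′ end, and lowers the stability and translation of those mRNAs. miR-192 and miR-215 are close relatives with a common seed, whereas miR-194 has an unrelated seed but is transcribed together with one or the other of them. All belong to the abundant miRNAs of gut, kidney and liver epithelium, and the transcription of both clusters is known to respond to the tumour suppressor p53, which slows the cell cycle.

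The mature sequences are shown because they decide which reads can be told apart. They were taken from RefSeq for build GRCm38.p6, in which 8 of 8 mature loci of the 4 hairpins had the positions of the deposited table, and capitals mark the seed.
miR-192-5p: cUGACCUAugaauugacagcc
miR-215-5p: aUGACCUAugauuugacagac
miR-194-5p: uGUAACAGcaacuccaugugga
miR-194-1-3p: cCAGUGGAgcugcuguuacuuc
miR-194-2-3p: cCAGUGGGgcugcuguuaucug
miR-192-5p and miR-215-5p had the same base at 18 of 21 positions (85.7%), and the differences from miR-192-5p to miR-215-5p, counted from the 5′ end, were C1A, A12U and C20A. None of them lies in the seed. Of 1679 mature names in the RefSeq table, the seed UGACCUA was found in miR-192-5p and miR-215-5p and no other name, and the seed GUAACAG was found in miR-194-5p and no other name. The opposite arms of the 2 miR-194 hairpins were identical at 18 of 22 positions (81.8%), with the differences A8G, C19U, U20C and C22G from miR-194-1-3p to miR-194-2-3p, so these arms tell the copies apart where miR-194-5p cannot.

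The chromosome 19 cluster (GRCm38, plus strand) holds Mir194-2 at chr19:6264643-6264728 and Mir192 at chr19:6264844-6264932, with 115 bases between the hairpins. By the GENCODE annotation it is intergenic and starts 2307 bases past the end of Atg2a, an autophagy gene on the same strand. The chromosome 1 cluster (plus strand) holds Mir194-1 at chr1:185313319-185313385 and Mir215 at chr1:185313581-185313692, with 195 bases between the hairpins. Both hairpins lie antisense in an intron of Iars2, which encodes the mitochondrial isoleucyl-tRNA synthetase. They also lie within the non-coding antisense gene 2010103J01Rik, Mir194-1 in an intron and Mir215 inside an exon. miR-194-5p has an identical copy in each cluster, at chr1:185313325-185313346 and chr19:6264658-6264679, and the table gives it 1 count for both.

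**Figure D1:**
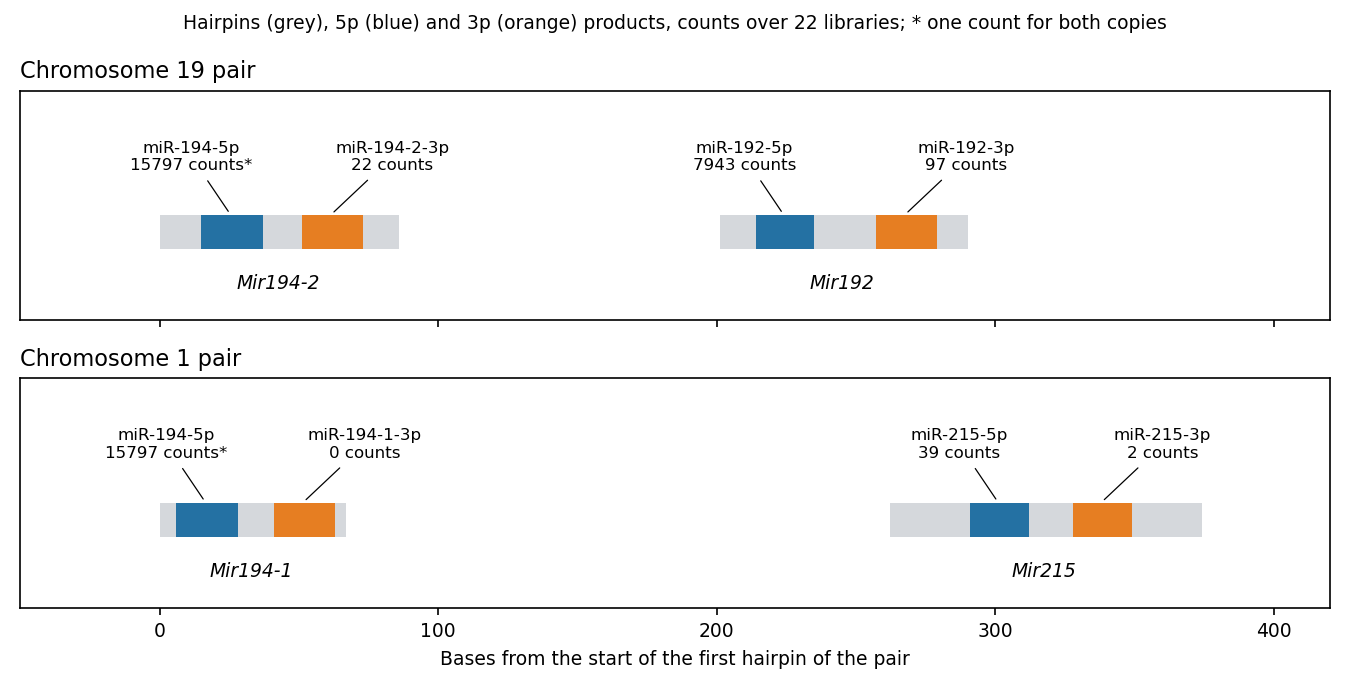
Map of the 2 clusters, drawn to scale in bases from the start of the first hairpin, with hairpins in grey, 5p products in blue, 3p products in orange and the counts of each product summed over 22 libraries. The chromosome 19 pair yielded 7943 counts of miR-192-5p, whereas the chromosome 1 pair yielded 39 counts of miR-215-5p, and the 15797 counts of miR-194-5p belong to both copies together.

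Total counts per library were 559957 to 1081333 in batch a and 2067322 to 3239357 in batch b. The members together took 0.0467% to 0.0868% of the counts of a library. A count of 3, taken as the smallest amount the depth can show, equals 5.36 CPM (the counts of a miRNA scaled to a common library total) in the shallowest library and 0.926 CPM in the deepest. Levels below are CPM after TMM scaling, which adjusts for differences in library composition, across all 22 libraries. All of 8 miRNAs of testicular germ cells were detected in every group, with a summed level of 177000 to 249000 CPM in batch a and 347000 to 436000 CPM in batch b. Most of this sum was miR-34c-5p, with a mean of 154000 CPM in WT of batch a and 301000 CPM in WT of batch b. The list is of germ cells in general, so it does not check the RS label itself.

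As counted, miR-194-5p was above miR-192-5p in 22 of 22 libraries, while miR-215-5p was close to the limit of detection. By mean CPM over all libraries, miR-194-5p ranked 115 and miR-192-5p ranked 147 among the 1134 names that were detected, and miR-215-5p ranked 534. The mature lengths are 21 and 22 bases, and the levels were not corrected for length. How the local alignment treated reads this short was not tested. A read of miR-194-5p fits both loci, and the way such reads were counted is not fully given in the sources used here. The count of miR-194-5p was even in 13 of 22 libraries, whereas 10 of the 40 names with 2 loci and at least 100 counts were even in all 22, which is what counting every read at both loci would give. Divided by its 2 loci, miR-194-5p had a mean of 214.8 CPM over all libraries, beside 212.2 CPM of miR-192-5p, and miR-192-5p was then the higher in 11 of 22 libraries. The order of miR-194-5p and miR-192-5p therefore depends on how reads of both loci were counted, but comparisons of miR-194-5p between groups are within the same name.

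miR-215-5p had 39 counts over all 22 libraries, and 0 to 4 counts in any library. The counts were 2, 1, 1, 1 and 2 in the WT libraries of batch a, and 2, 3, 1, 0 and 1 in the KO libraries. In batch b they were 1, 1, 4, 3, 1 and 1 in the WT libraries, and 4, 4, 3, 0, 2 and 1 in the KI libraries. Only 3 libraries, 1 of WT and 2 of KI in batch b, held more than 3 counts, and 2 libraries held 0. miR-215-5p did not pass the filter on low counts. Without the filter, the edgeR adjusted p of miR-215-5p was 0.855 in KO and 0.812 in KI against WT and 0.62 between the WT groups. No fold change is given, since a difference between the groups was not detectable at this depth.

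Of the counts that carry the common seed, miR-215-5p made up 39 of 7982, a share of 0.489% with an exact (Clopper-Pearson) 95% interval of 0.348% to 0.667%. The share was 0.604% in WT (0.243% to 1.24%) and 0.846% in KO (0.341% to 1.74%) in batch a. In batch b it was 0.365% in WT (0.182% to 0.652%) and 0.47% in KI (0.257% to 0.787%). These intervals cover counting error only, and they overlapped in all 4 groups. In every group, the counts with the seed UGACCUA were thus assigned almost wholly to miR-192-5p. Wrong assignment of reads between miR-192-5p and miR-215-5p was not tested.

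The opposite arms were rare. miR-192-3p had 97 counts, which was 1.21% (0.979% to 1.47%) of both arms of its hairpin, and the share was 0.947% in WT and 0.726% in KO of batch a and 1.09% in WT and 1.56% in KI of batch b. miR-215-3p had 2 counts, both in 1 WT library of batch b. miR-194-2-3p had 22 counts, with 0 to 3 in a library, and miR-194-1-3p had none. For the chromosome 1 copy among the opposite arms of miR-194, the limit of 3 counts that a count of 0 of 22 allows is a share of up to 13.6%, and the exact 95% interval reaches 15.4%. These few reads do not measure how miR-194-5p itself is divided between the copies. None of the 4 opposite arms passed the filter for the tests.

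The KO comparison asks how RS miRNAs differ when GRTH is absent, and neither tested member passed the threshold in it. miR-192-5p was at 196.4, 222.4, 203.2, 210.3 and 227.4 CPM in the WT libraries and at 218.1, 186.9, 195.5, 160.7 and 188.0 CPM in the KO libraries. Thus 4 of 5 KO libraries were below every WT library on the TMM scale, and 1 lay within the WT range. The means were 211.9 ± 12.92 CPM in WT and 189.8 ± 20.55 CPM in KO (SD, n = 5 each). In edgeR's quasi-likelihood test the log2 fold change was -0.13 (SE 0.10), with a 95% interval of -0.34 to 0.08 and a Benjamini-Hochberg adjusted p of 0.311. The interval allows KO levels between 0.789 and 1.06 times those of WT. The separation of the libraries depended on the scaling. Scaled by total count alone, the WT libraries were at 222.8 to 243.0 CPM and the KO libraries at 243.7, 239.4, 260.3, 200.0 and 214.0 CPM. The log2 fold change was then -0.02 (edgeR adjusted p = 0.9).

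miR-194-5p was at 443.5, 413.6, 416.5, 380.3 and 436.4 CPM in the WT libraries of batch a and at 430.4, 419.0, 384.3, 536.7 and 418.4 CPM in the KO libraries. In 4 of 5 KO libraries the level lay within the WT range, and KO replicate 4 stood above it. The means were 418.1 ± 24.67 CPM in WT and 437.7 ± 57.93 CPM in KO. The edgeR log2 fold change was 0.09 (SE 0.10, 95% interval -0.12 to 0.30, adjusted p = 0.474), which allows KO levels of 0.921 to 1.23 times WT. With 0 of 2 tested members called, the background was 140 of 334 miRNAs called between KO and WT (41.9%), 71 higher (21.3%) and 69 lower (20.7%). The KO and WT libraries overlapped for both members, against 66 of the 334 miRNAs (19.8%) whose libraries did not overlap.

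**Figure D2:**
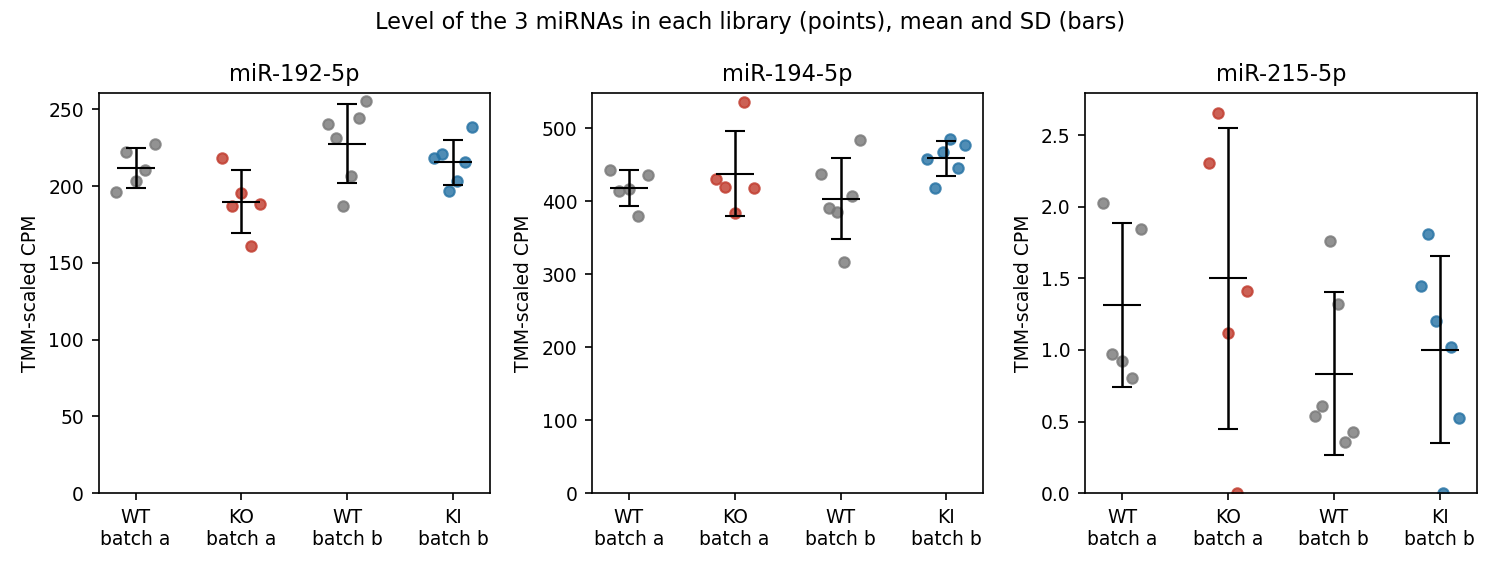
Level of miR-192-5p, miR-194-5p and miR-215-5p in each library (points, TMM-scaled CPM, each panel from 0), by genotype and batch, with the group mean and SD as bars. The groups overlap for every member, and the scale for miR-215-5p ends below 3 CPM, where a point stands for 0 to 4 counts.

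The KI comparison asks the same when GRTH is present but not phosphorylated, and here miR-194-5p passed the threshold as higher while miR-192-5p did not pass. miR-194-5p ranged from 317.0 to 483.3 CPM with a median of 398.7 in the 6 WT libraries, and from 417.7 to 485.5 CPM with a median of 463.2 in the 6 KI libraries. The groups overlapped, and 1 of 6 KI libraries was above every WT library. The means were 403.4 ± 55.68 CPM in WT and 458.7 ± 24.58 CPM in KI (SD, n = 6 each). miR-194-5p rose by a log2 fold change of 0.21 (SE 0.09, 95% interval 0.02 to 0.39, edgeR adjusted p = 0.0852), a ratio of 1.15 (1.02 to 1.31).

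The background was 147 of 387 miRNAs called between KI and WT (38.0%), of which 70 were higher (18.1%) and 77 lower (19.9%), so that 1 of 2 tested members called is near the share of all miRNAs. The libraries of both groups did not overlap for 48 of the 387 miRNAs (12.4%), and neither tested member was among them. A larger change than that of miR-194-5p was measured for 223 of the 387 miRNAs. The call was lost when any of 7 of the 12 libraries was left out, namely WT replicates 2, 3, 4 and 5 and KI replicates 3, 4 and 6 of batch b, with a log2 fold change of 0.17 to 0.22 and an edgeR adjusted p of 0.117 to 0.194 for miR-194-5p. It was also lost in 2 of 7 other settings, without the filter on low counts (0.21, adjusted p = 0.237 in edgeR) and in the fit of all 4 groups (0.19, adjusted p = 0.134).

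miR-192-5p ranged from 187.1 to 255.5 CPM with a median of 235.8 in the WT libraries of batch b, and from 196.7 to 238.4 CPM with a median of 217.0 in the KI libraries. All 6 KI libraries lay within the WT range. The means were 227.6 ± 25.78 CPM in WT and 215.6 ± 14.62 CPM in KI. The log2 fold change was -0.06 (SE 0.08, 95% interval -0.24 to 0.13, edgeR adjusted p = 0.638), which allows KI levels of 0.849 to 1.09 times WT.

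The WT libraries of both batches share the genotype, so comparing them measures the batch difference. For miR-192-5p the log2 fold change of batch b against batch a was 0.05 (SE 0.10, 95% interval -0.16 to 0.25, edgeR adjusted p = 0.728), and for miR-194-5p it was -0.11 (SE 0.10, -0.33 to 0.11, adjusted p = 0.4). Neither was called, against a background of 217 of 383 miRNAs called between the WT groups (56.7%), 103 higher (26.9%) and 114 lower (29.8%) in batch b, and 145 without overlap (37.9%). When libraries were scaled by total count alone, the median of all miRNAs moved to -0.34 and the values became -0.28 for miR-192-5p and -0.44 for miR-194-5p, both called lower, so the batch values are stated relative to the TMM scale.

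A single fit over the 4 groups asked whether KO and KI effects differed, with each mutant set against the WT libraries of its own batch. The difference was -0.08 on the log2 scale for miR-192-5p (SE 0.13, 95% interval -0.35 to 0.19, edgeR adjusted p = 0.803). For miR-194-5p it was -0.12 (SE 0.14, 95% interval -0.40 to 0.16, edgeR adjusted p = 0.691). The call of miR-194-5p in KI alone therefore does not show a response that differs from KO. In this test 0 of 421 miRNAs were called (0%) by edgeR and 0 by DESeq2, but 25 with a block for the replicate number and 26 without KI replicate 2 of batch b, and 67 of the 421 had an unadjusted p under 0.05 in edgeR (15.9%).

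**Figure D3:**
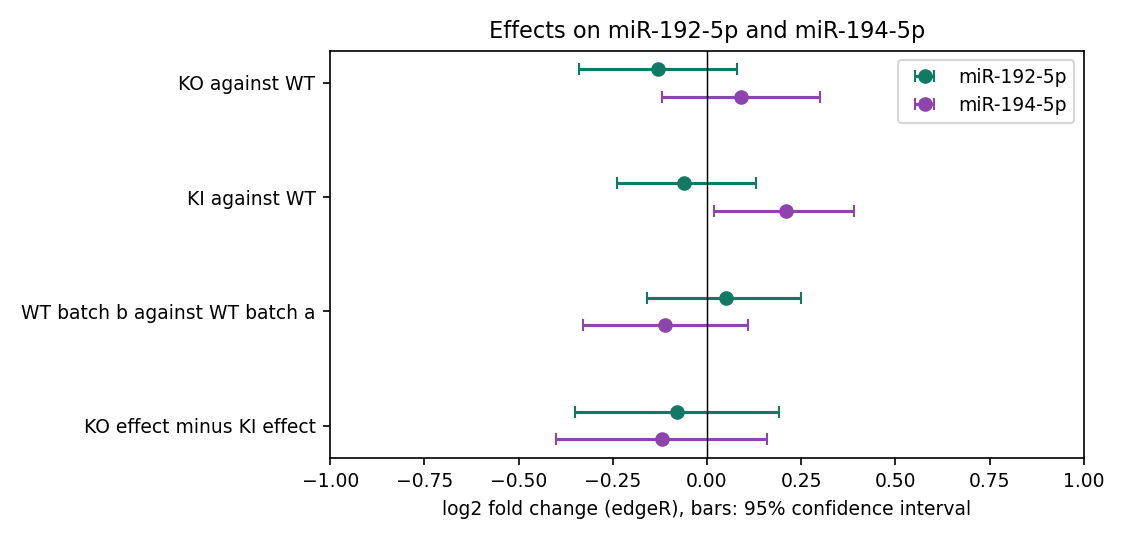
Log2 fold changes of miR-192-5p and miR-194-5p (edgeR, points) with their 95% intervals (bars) for KO against WT, KI against WT, WT of batch b against WT of batch a, and the KO effect minus the KI effect. Of the 8 intervals, 7 include 0, and that of miR-194-5p in KI runs from 0.02 to 0.39.

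miR-192-5p and miR-194-5p were then set against each other within each library, because a ratio does not depend on how libraries are scaled. The log2 ratio of the miR-192-5p count to the miR-194-5p count was -1.17, -0.89, -1.03, -0.85 and -0.94 in the WT libraries of batch a and -0.98, -1.16, -0.97, -1.74 and -1.15 in the KO libraries. KO replicate 4 had the lowest ratio of all 22 libraries, and the other KO libraries lay within the WT range. The mean log2 ratio was -0.98 ± 0.13 in WT and -1.20 ± 0.31 in KO (SD, n = 5 each), a difference of -0.22 (two-sided exact permutation test, p = 0.143, adjusted p = 0.257). Without KO replicate 4 the difference was -0.09 (exact permutation test, adjusted p = 0.5). The adjustment was over the 9 ratio tests among the 3 members and 3 comparisons.

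In batch b the log2 ratio ranged from -1.04 to -0.62 in the WT libraries and from -1.26 to -0.92 in the KI libraries. The means were -0.82 ± 0.15 in WT and -1.09 ± 0.14 in KI (SD, n = 6 each), a difference of -0.27 (two-sided exact permutation test, p = 0.013, adjusted p = 0.117). The ratio missed the threshold of 0.1 after this adjustment over 9 tests. Over the 3 tests without miR-215-5p, an adjustment chosen after seeing the data, the adjusted p of the exact permutation test was 0.039, so the call depends on the 6 tests of a miRNA with few counts. The ranges of the groups overlapped between -1.04 and -0.92. Between the WT groups the ratio was 0.16 higher in batch b (exact permutation p = 0.104, adjusted p = 0.244). The other 6 ratio tests involve miR-215-5p, and no value is given for them, since with 0 to 4 counts the pseudocount of 0.5 would set it.

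**Figure D4:**
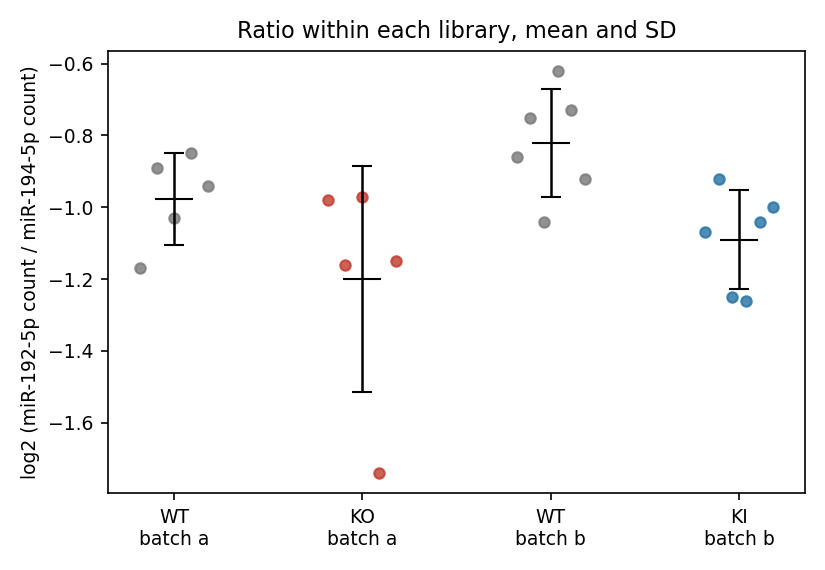
Log2 ratio of the miR-192-5p count to the miR-194-5p count in each library (points), with the mean and SD of each group (bars). All 22 values are below 0, and KO replicate 4 at -1.74 stands apart from the other KO libraries, which lie between -1.16 and -0.97.

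Across the 22 libraries, with the mean of each batch removed, the levels of miR-192-5p and miR-194-5p had a Pearson correlation of -0.08 on the log2 scale, as a description, although their hairpins are neighbours on chromosome 19. Among the 421 miRNAs compared, those most like miR-192-5p were miR-93-5p (r = 0.68), let-7a-5p (0.68) and miR-16-5p (0.67). let-7a-5p is an abundant miRNA of differentiated cells, and miR-16-5p and miR-93-5p are known for their targets in the cell cycle. Those most like miR-194-5p were miR-497a-5p (0.71), miR-30e-5p (0.71) and miR-142a-5p (0.67), the last a miRNA of blood cells. The points share their libraries, scaling and genotype differences, and no test was made.

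Other miRNAs linked to p53 were called in both directions. Of 8 such miRNAs, all tested, 3 were called higher and 4 lower in KO, with a median log2 fold change of -0.24 against 0.01 over all miRNAs, and 3 were called higher and 4 lower in KI, with a median of -0.12 against 0.00. The share called among all miRNAs was 41.9% in KO and 38.0% in KI, and the difference between the list and all miRNAs was not tested. miR-34a-5p, the best known direct p53 target among miRNAs, fell by 0.80 on the log2 scale in KI (SE 0.10, edgeR adjusted p = 7.31e-05) and had a value of -0.47 in KO (adjusted p = 0.13). miR-107-3p, which lies in a pantothenate kinase gene, rose by 0.59 in KO and 0.47 in KI (edgeR adjusted p = 0.00437 and 0.000744). miR-143-3p, a smooth muscle and stromal miRNA, rose by 1.02 in KO and 0.58 in KI (edgeR adjusted p = 0.00709 and 0.0369), and the epithelial miR-141-3p fell by 0.74 in KO and by 0.30 in KI (edgeR adjusted p = 0.00761 and 0.0344). miR-34b-5p and miR-34c-5p, which are also abundant germ cell miRNAs, had smaller values. miR-34b-5p fell by 0.27 in KO (edgeR adjusted p = 0.0643) and was at -0.12 in KI (adjusted p = 0.271), and miR-34c-5p fell by 0.21 in KO and by 0.11 in KI (edgeR adjusted p = 0.0809 and 0.0271). For comparison, miR-192-5p was at -0.13 in KO and -0.06 in KI, and miR-194-5p at 0.09 in KO and 0.21 in KI. Likeness of the members to this list was not tested.

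Of 10 miRNAs that accompany the members in gut, kidney and liver epithelium, 8 were tested. Of these, 0 were called higher and 2 lower in KO (median log2 fold change 0.02), where 41.9% of all miRNAs were called, and 1 was called higher and 3 lower in KI (median -0.15), where 38.0% were called. miR-375-3p, a miRNA of endocrine and gut epithelial cells, rose by 0.28 in KI (edgeR adjusted p = 0.00235), and miR-203-3p, of stratified epithelium, fell by 0.56 in KI (edgeR adjusted p = 0.000446). In KO neither was called, at 0.03 for miR-375-3p and -0.16 for miR-203-3p (edgeR adjusted p = 0.828 and 0.632). miR-200c-3p fell by 0.41 in KO and by 0.49 in KI (edgeR adjusted p = 0.0327 and 0.00574). miR-122-5p, the defining miRNA of hepatocytes, lay between 0 and 2.83 CPM in every library and was not tested. An epithelial list of 6, all of them also among these 10, had 0 called higher and 2 lower in KO and 0 higher and 3 lower in KI. Its summed level was 1010 to 1380 CPM in WT and 867 to 1060 CPM in KI of batch b. In batch a it was 536 to 983 CPM in WT and 567 to 963 CPM in KO.

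Some markers of other cells were called in KI, where miR-194-5p was called higher, and also in KO, where miR-194-5p was not called. In bulk libraries, fewer cells of a type and less RNA per cell cannot be told apart. Of all miRNAs tested, 18.1% were called higher in KI and 21.3% in KO. All 5 leukocyte miRNAs were called higher in KI, and their summed level was 2960 to 3970 CPM in WT and 3720 to 5940 CPM in KI of batch b. In KO, 3 of these 5 were called higher, with sums of 4080 to 5090 CPM in WT and 4440 to 6260 CPM in KO. miR-142a-5p, among those most like miR-194-5p above, had 471 ± 54.5 CPM in WT and 628 ± 88.2 CPM in KI and rose by 0.44 (SE 0.10, edgeR adjusted p = 0.0048). In KO it was at 0.12 (edgeR adjusted p = 0.427).

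Of 6 endothelial and stromal miRNAs, 4 were tested, and 3 were called higher in each mutant. The share of all miRNAs called higher was 21.3% in KO and 18.1% in KI. Their summed level was 1160 to 1930 CPM in WT and 1770 to 3800 CPM in KI, and 637 to 1710 CPM in WT and 1580 to 3220 CPM in KO. Both miR-202 arms, of Sertoli cells and somatic gonad, were called lower in KI, with sums of 114 to 188 CPM in WT and 79.3 to 108 CPM in KI, and fell by 0.70 (miR-202-5p) and 0.73 (miR-202-3p) on the log2 scale. In KO, 0 of 2 were called, at -0.71 for miR-202-5p and -0.52 for miR-202-3p (edgeR adjusted p = 0.104 and 0.259), with sums of 68.9 to 195 CPM in WT and 45.0 to 109 CPM in KO. Of 3 erythroid miRNAs, 1 was tested and not called in either mutant, and miR-144-3p was at 0 in both WT groups and in KI. Of the 8 germ cell miRNAs, 6 were called lower in KO and 6 in KI, and 0 higher in either. The share of all miRNAs called lower was 20.7% in KO and 19.9% in KI, and no list was tested against all miRNAs. The part of these cells in the values of miR-194-5p and miR-192-5p was not tested.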

How the data were processed

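The deposited table holds counts of reads per mature miRNA name in 22 libraries. Per the file headers and the labels, the authors trimmed adapters (cutadapt 3.4), aligned reads to GRCm38 with Bowtie2 2.4.2 in local mode and counted them by strand on mature miRNAs with featureCounts of Subread 2.0.1. Reads marked as duplicates were kept, and the command did not name the option for multi-mapped reads. Of 1966 names, 82 had 2 or more loci. Total counts ranged from 559957 to 3239357, and the number of per-sample value columns not used was 0. No pair of replicates agreed within sampling noise (lowest chi-square per degree of freedom 7.28).

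The main test was edgeR's quasi-likelihood test (version 4.0.16, R 4.3.3) on counts scaled by TMM after filterByExpr, over the whole table, each batch in its own fit with genotype as the only term. The study's threshold was kept, and calls needed an adjusted p (Benjamini-Hochberg) below 0.1. The study used DESeq2, run here as an alternative (1.42.0). Biological coefficients of variation were 0.167 (KO against WT) and 0.173 (KI against WT). Log2 ratios between members used a pseudocount of 0.5 and exact permutation tests over every split of the libraries. The exact intervals of the shares were computed with scipy 1.17.1. The scripts were tested on simulated data. Alternatives were other scaling, no filter, library size only, the fit of all groups, a replicate block, and leaving out each library.

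The miRNAs named are the members, the opposite arms of their hairpins, the 3 miRNAs with the highest Pearson correlation with each tested member (log2 of CPM plus 1, batch means removed), and miRNAs of fixed lists. Of the lists, some of the named examples were picked with their values known. The members, lists and rules were chosen with earlier results of these data known, and the lists share miRNAs with each other. Same-numbered libraries had correlations of -0.11 to 0.18 in KO against WT, over 0.1 in 2 of 5 pairs. They were -0.11 to 0.52 in KI against WT, over 0.1 in 3 of 6 pairs. The main fits did not take the numbers as pairs, and these values do not settle whether the libraries of batch b were paired. The labels call the KO batch a and the KI batch b, while the methods of the study name them in the other order.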

Additional observations from a re-analysis of the deposited data

Results flagged for a closer look

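KO replicate 4 had a log2 ratio of miR-192-5p to miR-194-5p of -1.74, and the other 4 KO libraries lay between -1.16 and -0.97. The gap to the nearest of them was 0.751 of the whole range of the group, above the critical value of Dixon's test for 5 samples. Of 12 combinations of member or ratio and group that were screened, 1 met this criterion, and chance alone gives about 0.6. KO replicate 4 is also the shallowest of the 22 libraries, with 559957 counts, of which 112 were miR-192-5p. Without it, the log2 fold change between KO and WT was 0.00 for miR-194-5p and -0.08 for miR-192-5p, and the difference in the log2 ratio was -0.09 (exact permutation test, adjusted p = 0.5). The part of depth in this value was not tested.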

How the results depend on the processing

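The rise of miR-194-5p in KI missed the threshold of edgeR without the filter on low counts (0.21, adjusted p = 0.237) and in the fit of all 4 groups (0.19, adjusted p = 0.134). It passed in the other 5 of 7 settings, among them DESeq2 (0.22, adjusted p = 0.0373). Leaving out 1 library at a time gave 0.17 to 0.27 (adjusted p 0.0283 to 0.194), and over the other settings the adjusted p was 0.0201 to 0.237. With library size as the only scaling, the WT difference between batches became -0.28 for miR-192-5p, a reversal of sign, and -0.44 for miR-194-5p, both called, and that of miR-192-5p between KI and WT became 0.03. Between KO and WT, miR-192-5p was at -0.02 with this scaling (edgeR adjusted p = 0.9). Leaving out libraries moved the WT difference of miR-192-5p from -0.02 (without WT replicate 5 of batch b) to 0.10, uncalled throughout. The KI difference of the log2 ratio (-0.27) passed when adjusted over the 3 tests without miR-215-5p, an alternative chosen after seeing the data (exact permutation, adjusted p = 0.039). Leaving out libraries, it was -0.31 to -0.23 and passed without WT replicate 3 (exact permutation, adjusted p = 0.0584) or KI replicate 2 (adjusted p = 0.0779) of batch b. The number of miRNAs whose KO and KI effects differ was 0 to 26, with 1 without WT replicate 1 and 26 without KI replicate 2 of batch b.

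A block for the replicate number gave 124 called miRNAs between KO and WT, 165 between KI and WT, 232 between the WT groups and 25 in the difference of the effects (21 higher, 4 lower). miR-194-5p was then called between the WT groups (-0.16, edgeR adjusted p = 0.0755) and remained called in KI (0.22, adjusted p = 0.0663), and no other call of a member changed. Between the WT groups the block joins libraries of different batches by their number alone, and the labels state no link between them. Of the libraries, 3 of 10 in KO against WT and 6 of 12 in KI against WT correlated best with their own number. Between the WT groups, which lie in different batches, it was 4 of 10, and the number that chance would give was not computed. miR-215-5p has too few counts for a fold change under any setting, and the cause of these changes was not tested.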
